A study of Mus musculus with 18 samples.

Results

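Erythroblasts of mice with no wild-type Klf1 allele were compared by how many copies of the D45 allele they carried, 1 in D45/KO mice and 2 in D45/D45 mice. The comparison takes 7 of the 18 libraries of the study, the 4 D45/KO and the 3 D45/D45 columns of the deposited count table. The remaining libraries, 5 WT/KO, 3 WT/D45 and 3 WT/WT, helped to estimate the spread and give the levels with a wild-type allele present. D45 is the MommeD45 allele. The series title speaks of missense mutations in linker-2, a short stretch between zinc fingers of KLF1, and the labels do not spell out the D45 change. KO is a knockout allele, and the labels do not say which part of the gene is missing. Of these genotypes D45/KO is the compound heterozygous one, and the design text reports haemolysis and splenomegaly in such mice. All cells were sorted from spleen by flow cytometry for TER119, a surface antigen of maturing red cells, and for CD71, through which transferrin enters the cell, and total RNA was sequenced. Replicates are biological ones by the design text, and the labels do not give the age, sex or strain of the mice.

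KLF1 is a transcription factor of red cell precursors that binds CACCC boxes through its zinc fingers. It mostly activates its targets, which include the adult beta globin gene and genes for haem synthesis, the membrane skeleton, blood group proteins and the cell cycle. Terminal differentiation of erythroblasts depends on it, and mice without any KLF1 die as embryos of anaemia. Replacing one of a pair of D45 alleles by the null allele asks whether cells that rely on D45 alone differ with the number of its copies.

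Total counts were 43.3, 34.5, 10.5 and 36.3 M (M for 1000000) in D45/KO replicates 1 to 4, against 34.4, 21.4 and 42.0 M in D45/D45 replicates 1 to 3. The 16 erythroblast markers checked, among them Tfrc, had a mean level of 10.4 to 11.3 in log2 CPM (counts per M counts) in D45/KO and of 10.3 to 11.8 in D45/D45 libraries. The libraries differed in their transcripts of other cells. The summed level of 15 B cell markers was 311, 909, 219 and 4.41 CPM in D45/KO replicates 1 to 4, against 964, 2.79 and 10.3 CPM in D45/D45 replicates 1 to 3. D45/KO replicates 1, 2 and 3 and D45/D45 replicate 1 were therefore rich in B cell transcripts, while Pax5 and Fcer2a were among the markers at 0 in D45/KO replicate 4, Cd79a, Cd22, Blk, Cd72 and Faim3 at 0 in D45/D45 replicate 2, and Ms4a1 and Ebf1 at 0 in D45/D45 replicate 3. The summed level of the macrophage and monocyte markers was 201, 3057, 512 and 112 CPM in D45/KO replicates 1 to 4, against 272, 102 and 157 CPM in D45/D45 replicates 1 to 3, so D45/KO replicate 2 stood apart. In that library the macrophage receptors Cd163 and Mrc1 had 160.0 and 307.0 CPM, against at most 10.5 and 42.6 CPM in the 3 other D45/KO libraries and at most 4.93 and 17.7 CPM in D45/D45 libraries. In bulk RNA of a sorted fraction, fewer cells of a type and less RNA per cell cannot be told apart. The part of these other cells in each result was not tested, and the results are given with and without the B cell marker level as a term of the fit.

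**Figure D1:**
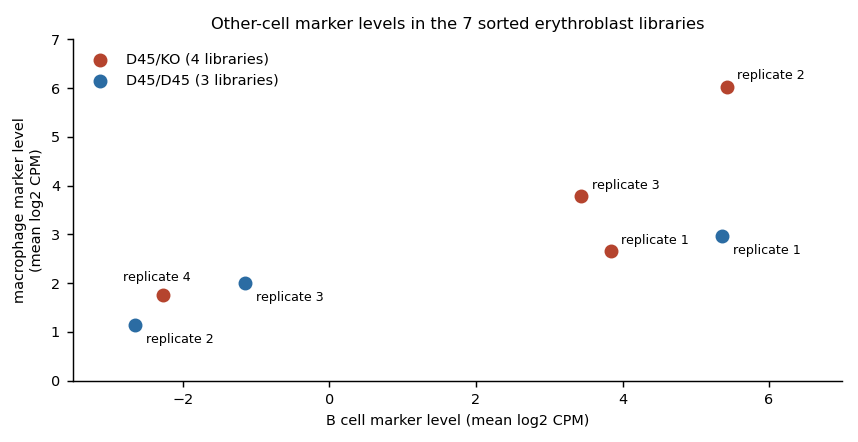
Mean log2 CPM of 15 B cell markers (x axis) and of the macrophage and monocyte markers (y axis) in each of the 4 D45/KO and 3 D45/D45 libraries, 1 point per library. The 4 points above 3 on the x axis are D45/KO replicates 1 to 3 and D45/D45 replicate 1, and D45/KO replicate 2 has the highest macrophage marker level, 6.03.

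Klf1 itself was the targeted gene. Its level was 584.5, 281.7, 676.0 and 762.8 CPM in the 4 D45/KO libraries, against 709.5, 1576 and 1394 CPM in the 3 D45/D45 libraries, all CPM here being scaled by TMM factors. The groups overlapped, because D45/KO replicate 4 lay above D45/D45 replicate 1. The mean was 576.3 ± 209.4 CPM in D45/KO and 1227 ± 457.0 CPM in D45/D45 libraries (SD, n = 4 and 3). The log2 fold change of D45/KO over D45/D45 was -1.09 ± 0.60 (SE), with an edgeR adjusted p of 1, and it was -0.69 ± 0.26 with the B cell marker level in the fit. With the macrophage marker level in the fit instead it was -0.35 ± 0.43. The test did not call Klf1 in any of these fits.

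Across the transcriptome 13405 genes were tested with edgeR's quasi-likelihood test on the counts, with Benjamini-Hochberg adjustment and a threshold of 0.05. In the fit with genotype alone 1 gene passed (0.00746% of the genes tested), and it was lower in D45/KO. At an unadjusted p under 0.05 there were 303 genes (2.26%), 151 higher (1.13%) and 152 lower (1.13%). In 640 genes (4.77%) the 4 D45/KO and the 3 D45/D45 values did not overlap, 333 with D45/KO higher (2.48%) and 307 with D45/KO lower (2.29%). When the B cell marker level was added as a further term, an alternative planned beside the fit with genotype alone, 18 genes passed (0.134%), 17 lower (0.127%) and 1 higher (0.00746%) in D45/KO. In the fit with genotype alone each of these 18 had an unadjusted p under 0.05 and the same sign, and its groups did not overlap. Both fits use the same libraries, so this is not independent evidence. With mouse identifiers under 200 as the added term instead, 1 of the 18 was called. B-rich libraries alone leave 1 D45/D45 library and B-poor libraries alone 1 D45/KO library, so values within them are given as a description. The genes described next as fallen or risen are these 18, and for all but Gm16793 the call rests on the fit with the B cell marker level. That fit called 8 to 16 genes when 1 library was left out, and 8 genes were called in each of the 7 such fits: Gm16793, Slc1a5, Slc2a4, Cacna1g, Nxpe2, Apol8, Agpat4 and Snx22. The other 10 lost their call without D45/D45 replicate 1, the only B-rich D45/D45 library, at adjusted p-values of 0.0809 to 0.56, and 8 of them also without at least 1 other library.

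The 1 gene called in both fits was Gm16793, annotated as a long non-coding RNA that starts from a promoter shared with a gene on the opposite strand. It had 2, 0, 0 and 0 counts in the D45/KO libraries, against 84, 67 and 70 counts in the D45/D45 libraries. Only D45/KO replicate 1, the deepest of the 7 libraries, held any of its reads in D45/KO. Pooled over the group and scaled for depth, its rate in D45/D45 was 186 times that in D45/KO (95% exact interval 50.9 to 1550, counting error only), and the adjusted p was 0.00962 with genotype alone and 0.000161 with the B cell marker level. With genotype alone the call was lost without D45/KO replicate 2, 3 or 4, at adjusted p-values of 0.0686, 0.0579 and 0.0759. It was also lost in an edgeR fit to the 7 libraries alone (adjusted p = 0.12) and with limma-voom (adjusted p = 0.133). Gm16793 overlaps exons of Mfhas1, a leucine-rich repeat GTPase gene on the other strand, and the sources name no strand setting for the counting, so reads of the pair may be shared. Mfhas1 had 2.30, 8.82, 2.96 and 0.404 CPM in D45/KO, against 12.3, 6.72 and 6.05 CPM in D45/D45 libraries, and the groups overlapped. Gm16793 lies on the same chromosome as Klf1, which none of the other 17 called genes does. In WT/KO, WT/D45 and WT/WT libraries Gm16793 averaged 5.60 ± 3.24, 8.56 ± 4.77 and 7.67 ± 3.78 CPM (SD, n = 5, 3 and 3).

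Of the 17 genes that fell, Slc1a5, Slc2a4, Cacna1g and Slc6a20a were in a list of 52 membrane transporter genes tested. With the B cell marker level 0.127% of all genes were called lower. The list was chosen with earlier results of these libraries known. Slc22a4, a transporter gene outside the list, is described with them. Slc1a5, which encodes the neutral amino acid and glutamine transporter ASCT2, had 26.5, 22.1, 25.1 and 36.9 CPM in D45/KO, against 109.9, 247.4 and 214.1 CPM in D45/D45 libraries. Slc2a4, which encodes the glucose transporter GLUT4, had 7.79, 6.02, 8.44 and 15.3 CPM in D45/KO, against 34.6, 84.6 and 100.3 CPM in D45/D45. Every D45/KO library lay below every D45/D45 library in both genes, and the lowest D45/D45 library was the B-rich replicate 1. With the B cell marker level in the fit, Slc1a5 had a log2 fold change of -2.30 ± 0.23 and an adjusted p of 2.61e-05. Slc2a4 had -2.51 ± 0.21 and 5.14e-06. Without that term the changes were -2.78 ± 0.62 and -2.96 ± 0.63, at adjusted p-values of 0.582 and 0.491. Among B-rich libraries, with 1 in D45/D45, the difference in mean log2 CPM was -2.16 for Slc1a5 and -2.23 for Slc2a4. Among B-poor libraries, with 1 in D45/KO, it was -2.64 and -2.59.

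Cacna1g, which encodes the pore subunit of a T-type calcium channel, had 0.233, 0.0891, 0.348 and 0.231 CPM in D45/KO, against 2.65, 3.21 and 4.42 CPM in D45/D45 libraries. It was nearly absent from D45/KO and low in D45/D45, with a log2 fold change of -3.75 ± 0.51 (adjusted p = 0.00111 with the B cell marker level, 0.266 without). Slc22a4, a cation transporter gene whose product carries ergothioneine, had 20.2, 20.4, 18.6 and 29.9 CPM in D45/KO, against 53.6, 124.8 and 111.6 CPM in D45/D45. Slc6a20a, an amino acid and imino acid transporter gene, had 1.06, 1.34, 0.522 and 2.34 CPM in D45/KO, against 3.72, 9.36 and 7.30 CPM in D45/D45. The groups did not overlap in either, and the log2 fold changes were -1.59 ± 0.29 and -1.99 ± 0.36, and both genes passed with the B cell marker level (adjusted p = 0.0201), not without (adjusted p = 1). Slc6a20a overlaps Ccr9 on the opposite strand. Ccr9, a chemokine receptor gene, had 0.327, 0.446, 0.696 and 0.231 CPM in D45/KO, against 0.736, 0.714 and 0.668 CPM in D45/D45 libraries.

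**Figure D2:**
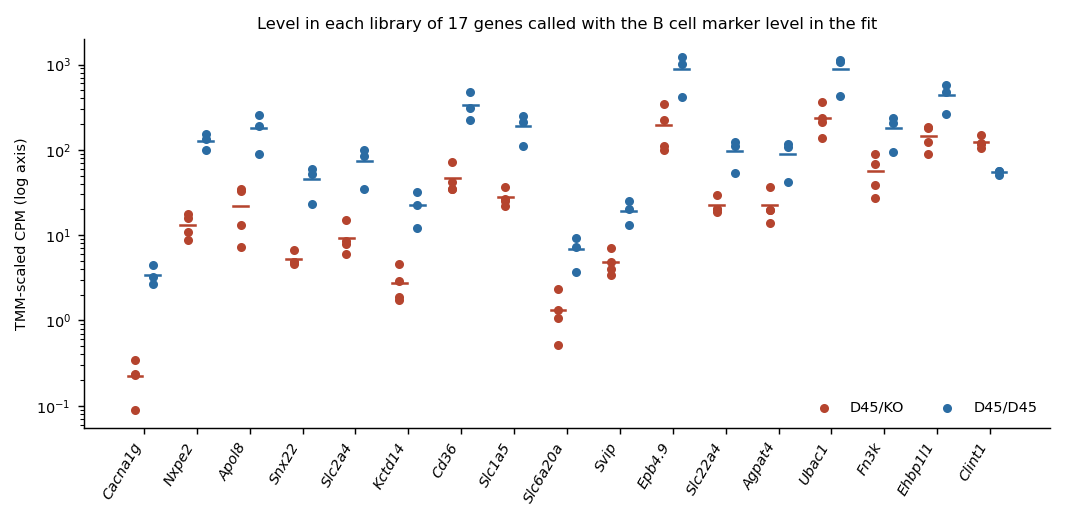
TMM-scaled CPM on a log axis of 17 of the 18 genes called with the B cell marker level in the fit, 1 point per library and a line at the group mean, D45/KO left of D45/D45. Gm16793 is not drawn because 3 of its D45/KO libraries were at 0. The groups do not overlap in any of the 17 genes, and Clint1 is the one gene drawn with D45/KO above D45/D45.

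Of the membrane skeleton genes, Epb4.9 fell. It encodes dematin, an actin-bundling protein of the red cell membrane junctions. Its level was 100.4, 110.5, 226.5 and 348.6 CPM in D45/KO, against 413.8, 1223 and 1020 CPM in D45/D45 libraries. The highest D45/KO library, replicate 4, came close to the lowest D45/D45 library, replicate 1. The log2 fold change was -1.69 ± 0.26 with the B cell marker level (adjusted p = 0.00435) and -2.17 ± 0.74 without (adjusted p = 1). Cd36, a surface receptor for fatty acids and thrombospondin that marks immature erythroid cells in humans, had 34.8, 35.0, 72.7 and 42.6 CPM in D45/KO, against 226.5, 477.1 and 312.9 CPM in D45/D45. The 4 D45/KO libraries were all far below the D45/D45 ones, also D45/KO replicate 2, which was rich in macrophage transcripts, and the log2 fold change was -2.32 ± 0.42 (adjusted p = 0.0202 with the B cell marker level, 1 without).

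The other genes that fell have varied roles. Nxpe2, a gene of the neurexophilin and PC-esterase domain family, had 11.0, 8.69, 15.7 and 17.6 CPM in D45/KO, against 98.4, 154.8 and 132.4 CPM in D45/D45 libraries, and its log2 fold change was -2.97 ± 0.30 (adjusted p = 2.61e-05 with the B cell marker level, 0.266 without). Among lipid genes, Apol8, of the apolipoprotein L family, averaged 21.97 ± 13.9 CPM in D45/KO and 178.4 ± 82.8 CPM in D45/D45, and Agpat4, a lysophosphatidic acid acyltransferase gene, averaged 22.5 ± 9.82 and 89.2 ± 41.6 CPM (SD, n = 4 and 3 throughout). Snx22, a sorting nexin gene, averaged 5.22 ± 0.96 CPM in D45/KO and 44.96 ± 19.3 CPM in D45/D45. The groups did not overlap in any of these 4 genes, and the log2 fold changes with the B cell marker level were -2.56 ± 0.33 for Apol8, -1.48 ± 0.21 for Agpat4 and -2.54 ± 0.32 for Snx22 (adjusted p = 0.000746, 0.00222 and 0.000669). Snx22 overlaps Ppib, which encodes a cyclophilin of the endoplasmic reticulum, on the opposite strand, and Ppib averaged 19.0 ± 3.91 CPM in D45/KO and 24.0 ± 3.45 CPM in D45/D45 with overlapping groups.

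The last 5 of the 17 genes that fell follow. Ubac1, a subunit gene of a ubiquitin ligase complex, averaged 237.8 ± 95.6 CPM in D45/KO and 876.6 ± 388.7 CPM in D45/D45, with a log2 fold change of -1.36 ± 0.24 and an adjusted p of 0.0173. Svip, whose small product binds the segregase VCP, averaged 4.82 ± 1.59 and 19.4 ± 5.80 CPM (-1.78 ± 0.32, adjusted p = 0.0201). Ehbp1l1, whose product acts with RAB proteins in vesicle transport, averaged 144.7 ± 46.3 and 440.1 ± 160.0 CPM (-1.23 ± 0.22, adjusted p = 0.0201). Fn3k, the gene of fructosamine-3-kinase, an enzyme that removes sugars from glycated proteins such as haemoglobin, averaged 55.8 ± 28.2 CPM in D45/KO and 178.8 ± 75.1 CPM in D45/D45 (-1.24 ± 0.23, adjusted p = 0.0234). Kctd14, a gene of the BTB domain family, averaged 2.77 ± 1.30 and 22.4 ± 10.2 CPM (-2.41 ± 0.34, adjusted p = 0.00177). These 5 were called with the B cell marker level in the fit. With genotype alone the adjusted p was 0.309 for Svip and 1 for each of the other 4.

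**Figure D3:**
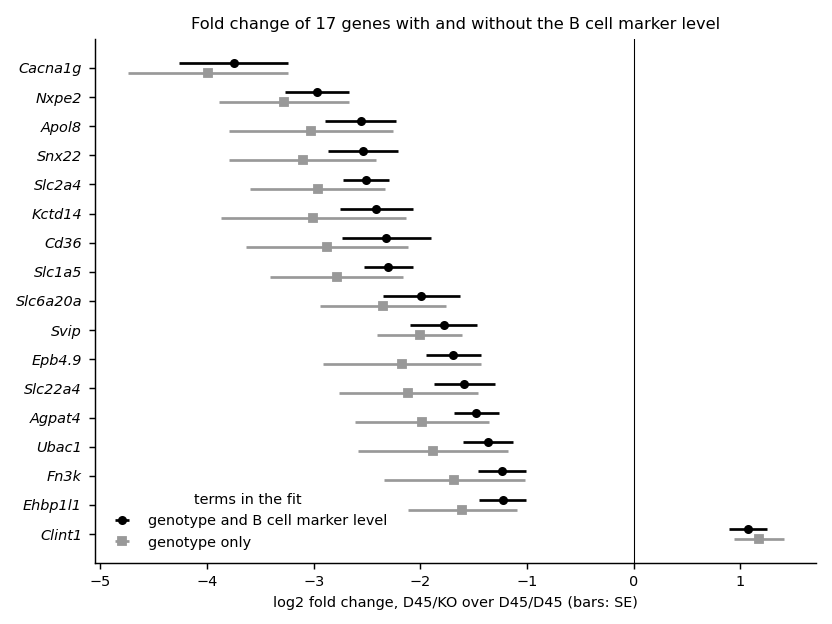
Log2 fold change of D45/KO over D45/D45 (x axis) with its SE for the same 17 genes, black circles from the fit with the B cell marker level and grey squares from the fit with genotype alone. The 2 estimates of a gene differ by less than 1 SE of the fit with genotype alone, and the bars are shorter with the B cell marker level.

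Promoters of the genes that fell are shown because KLF1 binds CACCC boxes. RefSeq windows (GRCm38.p6) were at hand for 10 of the 18 called genes, and the 250 bases before the start of 5 of them are printed 5′ to 3′ on the gene's strand, with matches to CCNCNCCC on either strand in capitals and overlapping matches run together.
Slc22a4, chr11:54028105-54028354, minus strand: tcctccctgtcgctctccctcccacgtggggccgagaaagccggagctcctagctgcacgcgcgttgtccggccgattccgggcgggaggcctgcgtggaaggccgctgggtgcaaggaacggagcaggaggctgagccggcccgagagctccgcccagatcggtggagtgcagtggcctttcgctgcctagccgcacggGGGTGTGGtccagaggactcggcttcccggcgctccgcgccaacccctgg
Slc6a20a, chr9:123678833-123679082, minus strand: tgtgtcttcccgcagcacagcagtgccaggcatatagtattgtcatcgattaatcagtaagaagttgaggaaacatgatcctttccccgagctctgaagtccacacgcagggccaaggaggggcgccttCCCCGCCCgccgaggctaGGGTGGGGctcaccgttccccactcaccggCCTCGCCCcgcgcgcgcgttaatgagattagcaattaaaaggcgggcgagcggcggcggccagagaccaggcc
Nxpe2, chr9:48340899-48341148, minus strand: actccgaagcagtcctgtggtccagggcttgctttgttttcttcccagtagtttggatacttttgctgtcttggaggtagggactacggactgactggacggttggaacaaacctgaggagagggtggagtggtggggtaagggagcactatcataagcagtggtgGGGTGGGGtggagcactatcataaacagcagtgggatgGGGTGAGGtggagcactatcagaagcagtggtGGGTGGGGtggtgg
Ubac1, chr2:26021761-26022010, minus strand: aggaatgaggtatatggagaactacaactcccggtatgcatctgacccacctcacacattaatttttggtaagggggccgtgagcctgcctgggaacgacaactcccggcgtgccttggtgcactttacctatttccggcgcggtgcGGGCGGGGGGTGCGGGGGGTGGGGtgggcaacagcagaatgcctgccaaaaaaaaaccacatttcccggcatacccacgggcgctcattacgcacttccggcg
Snx22, chr9:66069760-66070009, minus strand: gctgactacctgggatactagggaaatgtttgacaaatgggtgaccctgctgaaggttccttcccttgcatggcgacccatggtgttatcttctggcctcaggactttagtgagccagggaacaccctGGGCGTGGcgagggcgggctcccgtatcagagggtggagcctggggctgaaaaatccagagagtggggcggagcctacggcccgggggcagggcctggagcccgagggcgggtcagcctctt
The 10 genes had 13 windows, of which 11 held a match, and 45.9% of all 32851 such windows in the mouse genome did. Counted by gene, 8 of the 10 held a match in any window, and 48.5% of all 27025 genes did. Nxpe2 and Slc6a20a had 3 matches each, Ubac1 had 4 overlapping ones, and Slc22a4 and Snx22 had 1 each, while Apol8 and Cd36 had none in these letters. None of the 13 windows held GATAAG, searched on both strands and found in 6.55% of all windows. A match of letters does not show that a factor binds there.

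Clint1 was the 1 gene called higher. It encodes epsinR, an adaptor for clathrin coats between the Golgi and endosomes. It had 150.2, 117.0, 119.4 and 104.5 CPM in D45/KO, against 56.3, 50.2 and 56.98 CPM in D45/D45 libraries. Both groups were tight, and the lowest D45/KO library stood well above the highest D45/D45 library. The log2 fold change was 1.07 ± 0.18 with the B cell marker level (adjusted p = 0.00939) and 1.17 ± 0.23 without (adjusted p = 0.309), a 2.25-fold difference in the fit with genotype alone. The difference in mean log2 CPM was 1.19 among B-rich libraries, with 1 in D45/D45, and 0.97 among B-poor libraries, with 1 in D45/KO. In the edgeR fit with the B cell marker level the call was lost without the filter on low counts (adjusted p = 0.0634). It was also lost without D45/D45 replicate 1 (adjusted p = 0.259) or replicate 2 (adjusted p = 0.0796).

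No other gene with D45/KO higher passed either fit, but the 10 with the smallest p among genes of at least 2 CPM and non-overlapping groups included 9 beside Clint1. Tnfrsf21, which encodes a death receptor, had 67.8, 54.1, 73.4 and 53.8 CPM in D45/KO, against 22.6, 14.9 and 19.5 CPM in D45/D45 libraries. Tjp1, the gene of the tight junction scaffold ZO-1, had 19.9, 7.31, 20.2 and 9.87 CPM in D45/KO, against 2.14, 1.0 and 4.13 CPM in D45/D45. The log2 fold changes were 1.71 ± 0.41 and 2.56 ± 0.64, with adjusted p-values of 0.891 and 1. The other 7 were Srp72 (0.85 ± 0.23), a signal recognition particle protein gene, Cpd (1.33 ± 0.38), a carboxypeptidase of the Golgi network, Prdx6 (0.99 ± 0.29), a peroxiredoxin, Scamp1 (1.54 ± 0.49), a carrier membrane protein of recycling vesicles, Dennd4c (1.12 ± 0.36), an exchange factor for RAB proteins, Abhd2 (1.13 ± 0.36), a lipid hydrolase, and N4bp1 (1.63 ± 0.52), an RNase that limits NF-kB signalling. Each had an unadjusted p under 0.05 and an adjusted p of 1. Scai, a nuclear suppressor of MRTF-driven transcription, had 90.8, 75.2, 117.8 and 91.5 CPM in D45/KO, against 45.7, 44.4 and 60.7 CPM in D45/D45 (0.90 ± 0.29, adjusted p = 1).

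The levels with a wild-type allele present give these differences a scale. Slc2a4 averaged 9.38 ± 4.05 CPM in D45/KO and 73.2 ± 34.3 CPM in D45/D45, beside 63.5 ± 50.3 CPM in WT/KO, 110.2 ± 56.1 CPM in WT/D45 and 107.3 ± 38.3 CPM in WT/WT (SD, n = 4, 3, 5, 3 and 3). Nxpe2 averaged 13.2 ± 4.12 CPM in D45/KO and 128.5 ± 28.4 CPM in D45/D45, beside 232.4 ± 193.2, 342.7 ± 170.5 and 385.7 ± 121.4 CPM in WT/KO, WT/D45 and WT/WT. Cacna1g averaged 0.225 ± 0.106 CPM in D45/KO and 3.43 ± 0.91 CPM in D45/D45, beside 12.8 ± 10.6, 39.9 ± 23.0 and 85.5 ± 51.4 CPM. D45/KO was the lowest group in all 3, while neighbours among the groups with a wild-type allele lay within their spread. Clint1 averaged 122.8 ± 19.4 CPM in D45/KO and 54.5 ± 3.71 CPM in D45/D45, beside 44.4 ± 7.52, 39.4 ± 8.33 and 39.0 ± 8.41 CPM, so the other 4 group means lay between 39.0 and 54.5 CPM. Scai averaged 93.8 ± 17.7 CPM in D45/KO and 50.3 ± 9.06 CPM in D45/D45, beside 28.9 ± 9.01, 17.7 ± 3.09 and 13.8 ± 4.01 CPM.

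**Figure D4:**
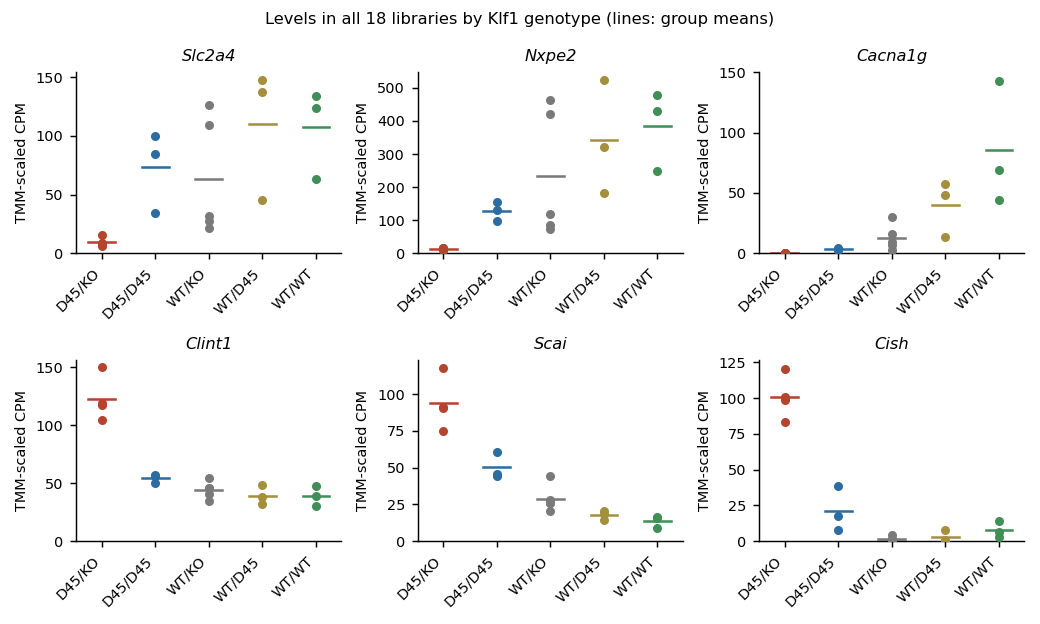
TMM-scaled CPM of 6 genes in all 18 libraries by genotype, 1 point per library and a line at the group mean, with separate axes that start at 0. D45/KO has the lowest mean of Slc2a4, Nxpe2 and Cacna1g and the highest mean of Clint1, Scai and Cish.

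Exchanging D45 for KO can also be measured beside a wild-type allele, as WT/KO against WT/D45. Whether the exchange differed in size without and with the wild-type allele was tested as a difference of the 2 differences, over 4 groups that share no library. With genotype alone 0 genes passed in edgeR and 100 (0.746%) had an unadjusted p under 0.05, while DESeq2 called 1, limma-voom 0 and limma-voom with library weights 1. With the B cell marker level in the fit edgeR called 3 genes (0.0224%), all with a larger fall when no wild-type allele was present. These were Gm16793, Nxpe2 and Slc2a4, at adjusted p-values of 0.0104, 0.0222 and 0.0104. For Nxpe2 the difference was -2.54 and for Slc2a4 -2.00 on the log2 scale, and Slc1a5 came next with -1.80 (adjusted p = 0.0515). For Klf1 the difference was 0.15 ± 0.83 with genotype alone and it was not called.

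A fixed set of 24 red cell genes, which includes band 3, spectrins, ankyrin and haem and iron genes, held 22 with a log2 fold change below 0 and a median of -0.38 with genotype alone, beside a median of 0.06 over all genes tested. With the B cell marker level the median was 0.10, beside 0.04 over all genes. Epb4.9 was the 1 member called, where 0.134% of all genes were called. Slc4a1, the gene of the anion exchanger band 3, averaged 15950 ± 5460 CPM in D45/KO and 24360 ± 11820 CPM in D45/D45, with overlapping groups. Alas2, the first enzyme of haem synthesis, had 4494, 7364, 8448 and 11100 CPM in D45/KO, against 3708, 18130 and 29260 CPM in D45/D45 libraries. Hbb-b1, an adult beta globin gene, took 4.42%, 6.84%, 3.37% and 5.87% of all counts in D45/KO, against 3.98%, 11.4% and 13.2% in D45/D45. The B-rich D45/D45 replicate 1 had the lowest Alas2 level of the 7 libraries and a globin share above that of D45/KO replicate 3 only, and the groups overlapped in both genes.

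The list of textbook KLF1 targets had 40 genes tested. Of all genes tested, 54.1% were above 0 with genotype alone and 54% with the B cell marker level. With genotype alone 1.13% of all genes were lower at an unadjusted p under 0.05. With the B cell marker level 0.127% of all genes were called lower. Of the 40 targets 38 were below 0 with genotype alone, the median log2 fold change was -0.61, 4 had an unadjusted p under 0.05, all lower, and edgeR called 0. With the B cell marker level 23 of 40 were above 0, the median was 0.05, and 4 were called, all lower: Nxpe2, Epb4.9, Ubac1 and Fn3k. The median was 0.34 in B-rich libraries alone, -0.49 in B-poor libraries alone and -0.06 with mouse identifiers under 200 as a term. The choice of this list was made with earlier results of these libraries known, so its count is not independent evidence. Of 52 membrane transporter genes tested, 33 were below 0 with a median of -0.31, and 33 were above 0 with a median of 0.14 once the B cell marker level was in the fit, which called Slc1a5, Slc2a4, Slc6a20a and Cacna1g lower. Some transporters had higher values in D45/KO. Atp1b2, a beta subunit gene of the sodium pump, had 110.6, 37.0, 87.3 and 52.2 CPM in D45/KO, against 32.8, 14.1 and 17.8 CPM in D45/D45 libraries (1.73 ± 0.57, adjusted p = 1). Lrrc8b, a gene of volume-regulated anion channels, had 92.6, 82.5, 173.4 and 115.2 CPM in D45/KO, against 31.6, 40.5 and 52.4 CPM in D45/D45 (1.48 ± 0.70, adjusted p = 1). Neither gene's groups overlapped. Of 28 membrane skeleton and adaptor genes, 16 were below 0 with a median of -0.13, 18 were above 0 with a median of 0.22 with the B cell marker level, and Epb4.9 alone was called.

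**Figure D5:**
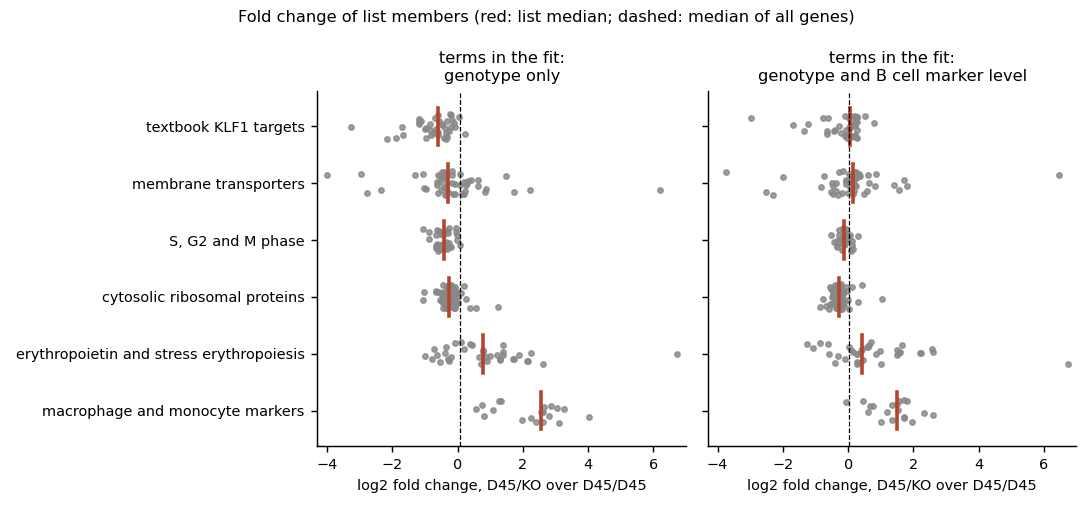
Log2 fold change of D45/KO over D45/D45 (x axis) of the tested members of 6 gene lists, 1 point per gene, from the fit with genotype alone (left) and with the B cell marker level added (right), with the list median in red and the median of all genes dashed. The KLF1 target median is -0.61 on the left and 0.05 on the right, while the ribosomal protein median is -0.26 and -0.29.

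Genes that answer to erythropoietin and to stress erythropoiesis had a median log2 fold change of 0.79, with 25 of 36 tested above 0. At an unadjusted p under 0.05 there were 3, all higher, and edgeR called 0. Of all genes 54.1% were above 0 and 1.13% were higher at that p. Cish, a feedback inhibitor induced by STAT5, had 100.7, 98.8, 120.6 and 83.1 CPM in D45/KO, against 38.6, 8.0 and 17.4 CPM in D45/D45 libraries. Podxl, a sialomucin gene of immature blood cells, had 151.8, 55.2, 137.2 and 57.98 CPM in D45/KO, against 26.3, 10.6 and 12.1 CPM in D45/D45. The groups of both genes lay well apart, but the SEs were wide in the fit to all 18 libraries. The log2 fold changes of 2.24 ± 1.06 and 2.62 ± 1.02 did not pass (adjusted p = 1 for both). In WT/KO, WT/D45 and WT/WT libraries Cish averaged 1.55, 3.00 and 7.70 CPM and Podxl 2.81, 3.97 and 2.39 CPM. The list median was 0.43 with the B cell marker level in the fit and 0.09 with the macrophage marker level. It was 0.31 without D45/KO replicate 2, 0.49 in B-rich libraries alone and turned to -0.17 in B-poor libraries alone.

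Of 76 cytosolic ribosomal protein genes tested, 70 were below 0, the median was -0.26, and in 19 the D45/KO values all lay below the D45/D45 values, where 2.29% of all genes did. At an unadjusted p under 0.05 there were 5, all lower, where 1.13% of all genes were lower, and edgeR called 0. The summed level ran from 15609 to 20427 CPM in D45/KO and from 20992 to 22995 CPM in D45/D45 libraries, without overlap. The median was -0.29 with the B cell marker level, -0.23 with the macrophage marker level and -0.28 without D45/KO replicate 2. It was -0.42 in B-rich libraries alone and turned to 0.025 in B-poor libraries alone. Rpl39 had 82.1, 82.0, 44.3 and 103.3 CPM in D45/KO, against 118.4, 179.7 and 177.9 CPM in D45/D45 (-1.03 ± 0.32, adjusted p = 1). Genes of S, G2 and M phase were below 0 in 33 of 34, with a median of -0.43, or -0.12 with the B cell marker level, and 0 had an unadjusted p under 0.05.

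Among p53 and apoptosis genes the median was 0.33 over 30 tested, and in 7 the D45/KO values all lay above the D45/D45 values, where 2.48% of all genes did. In 1 they all lay below, where 2.29% of all genes did. At an unadjusted p under 0.05 there was 1, higher, where 1.13% of all genes were, and edgeR called 0. With the B cell marker level the median was 0.25. Ccng1, a p53 target that encodes cyclin G1, had 50.5, 80.0, 48.1 and 51.1 CPM in D45/KO, against 18.9, 20.4 and 31.3 CPM in D45/D45 libraries (1.29 ± 0.50, adjusted p = 1). Its highest value was in D45/KO replicate 2. In the integrated stress response list 4 of 28 genes had D45/KO above D45/D45 without overlap and 0 were called. Among erythroid transcription factors 20 of 40 were above 0 and the groups did not overlap in 4, all lower in D45/KO, where 2.29% of all genes were lower without overlap. Klf11 had 8.85, 11.4, 7.39 and 9.29 CPM in D45/KO, against 18.3, 31.2 and 29.7 CPM in D45/D45, and Klf10 had 13.8, 7.75, 10.3 and 12.9 CPM, against 18.3, 27.9 and 23.2 CPM. These factors of the same family as KLF1 are induced by TGF-beta, and neither passed the test (-1.51 ± 0.50 and -1.04 ± 0.41, adjusted p = 1 for both). Haem synthesis and iron genes had a median of -0.36 over 34 tested, or 0.04 with the B cell marker level, and glycolysis genes 0.29 over 29, or 0.24, and neither list held a called gene.

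Markers of other cells had these values in the comparison. All 19 tested macrophage and monocyte markers were above 0, with a median log2 fold change of 2.55, 9 of them at an unadjusted p under 0.05, where 1.13% of all genes were higher at that p, and 0 were called. The groups overlapped in all 19, and markers at 0 were seen in D45/D45 replicate 2 alone (Ly6c1 and Marco). The median was 1.51 with the B cell marker level in the fit, 0.61 without D45/KO replicate 2 and 2.31 in B-rich libraries alone, and it turned to -0.20 in B-poor libraries alone. Of 15 B cell markers 12 were above 0, with a median of 0.26 and 0 called. Of 11 megakaryocyte and platelet markers 8 were above 0, with a median of 0.56. The part of these cells in the differences described above was not tested. With the B cell and macrophage marker levels both in the fit, 17 of the 18 called genes were called again. With the macrophage marker level alone 1 of them was called. The 18 were chosen by a fit to the same libraries, so these counts are not independent evidence.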

How the data were processed

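Per the labels' protocols, Trizol was used for RNA and a Swift Rapid kit for the libraries. The deposited table holds raw counts per gene symbol in 23365 rows for 18 libraries, and per the submitters' processing notes HISAT2, featureCounts, limma and the mm9 genome were used, with no versions or roles given. No strand setting is named. Symbols altered into dates (27) or repeated (2) are not named.

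The counts were fitted with edgeR 4.0.16 (R 4.3.3): filterByExpr by genotype (13405 genes), TMM scaling, a quasi-likelihood fit to all 18 libraries with genotype as the term, the contrast D45/KO minus D45/D45, two-sided, and Benjamini-Hochberg adjustment. The SE beside a log2 fold change is approximate, the fold change over the root of its F statistic. P-values measure the spread between these mice. The B cell marker level is the mean log2 CPM (prior count 2) of 15 genes, and libraries above 3 were called B-rich. Alternatives were DESeq2 1.42.0 and its size factors, limma 3.58.1 (voom, with and without library weights), a robust fit, no filter on low counts, only the 7 libraries, B-rich or B-poor libraries alone, mouse identifiers under 200 as a term, a replicate block, and each library left out. Fits with the macrophage marker level, and all alternatives to the fit with the B cell marker level, were added after the data had been seen.

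The comparison, the 29 gene lists and the naming rule were chosen with earlier results of these data known. Named are Klf1, genes of a fixed erythroid set, the 10 genes in each direction with the smallest p (non-overlapping groups and at least 2 CPM on average), up to 2 members in each direction of each list at an unadjusted p under 0.05, and the genes with the smallest adjusted p with the B cell marker level. Some were left out for length. Gm16793, the other called genes outside this rule, overlapping neighbours (Mfhas1, Ppib, Ccr9) and markers at 0 were named after their values were seen. The fits were tested on simulated data. Deviations of same-numbered replicates correlated at 0.309, -0.442 and 0.0438, which cannot decide whether the numbers pair the mice. No 2 of the 7 libraries held identical counts. Intervals on counts cover counting error only. Coordinates other than RefSeq promoter windows are not printed because the builds differ.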

Additional observations from a re-analysis of the deposited data

Results flagged for a closer look

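Within D45/KO some values of named genes stood apart from the other 3 libraries, with a gap to the nearest of them that took most of the group's range. This happened in 6 of 48 genes looked at. For independent values chance alone would flag about 1 in 20. Many of these genes were chosen by their values here, and several flags fall in the same library. The 6 of 48 therefore cannot be set against that rate. The 3 D45/D45 libraries are too few for this check. Cd163 and Mrc1, with 160.0 and 307.0 CPM in D45/KO replicate 2, lay above the next highest values of 10.5 and 42.6 CPM, and Ccng1 had 80.0 CPM there against a next highest value of 51.1 CPM. That library also has the highest macrophage marker level. In D45/KO replicate 4, which is poor in B cell transcripts, Slc22a4 had 29.9 CPM against a next highest value of 20.4 CPM, and Snx22 had 6.64 CPM against 4.87 CPM, both still below every D45/D45 library. Gm16793 had 0.0311 CPM (2 counts) in D45/KO replicate 1 and 0 in the others.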

How the results depend on the processing

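For D45/KO against D45/D45, with 1 gene called, DESeq2 called 17, limma-voom 0, limma-voom with library weights 703, a fit to the 7 libraries alone 5, the B cell marker level 18, B-rich libraries 0, B-poor libraries 11, and both marker levels 20. The macrophage marker level alone gave 1, as did mouse identifiers under 200 as a term. Leaving out 1 library gave 0 to 1, with 0 without D45/KO replicate 2, 3 or 4. For the difference of the exchange without and with a wild-type allele, with 0 called, DESeq2 called 1, library weights 1 and the B cell marker level 3. For the fit with the B cell marker level, with 18 called, DESeq2 called 56 and library weights 143. With limma-voom 20 were called, but not Cacna1g or Slc6a20a (adjusted p = 0.299 and 0.266). Leaving out 1 library gave 8 to 16, with 8 without D45/D45 replicate 1. The cause was not tested. Klf1 passed only with library weights (-1.18) and ran from -1.37 to -0.86 with 1 library left out. Directions changed, in genes that were not called, for Hbb-b1 (0.59) and Alas2 (0.87) in B-rich libraries, for Slc4a1 with the B cell level (0.023), in B-rich libraries (0.39) and with the macrophage level (0.12), and for Cd163 in B-poor libraries (-0.53), with the macrophage level (-0.11) and with both levels (-0.20).

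Same-numbered D45/KO and D45/D45 libraries had deviations from their group means that correlated at 0.309, -0.442 and 0.0438. So few values cannot decide whether replicate numbers pair the mice or mark a batch. Replicate 1 of every genotype had a mouse identifier under 200 and was B-rich. With a replicate block 1383 genes had an unadjusted p under 0.05 in edgeR, against 303 with genotype alone. With a replicate block 12 genes were called, all among the 18, and 7 with the block and the B cell marker level. In that last fit Cacna1g and Clint1 had adjusted p-values of 0.0536 and 0.0611. D45/KO replicate 3 had 10.5 M counts, so 1 count there is 0.0870 CPM, and genes near that level were not measurable in it.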
